A study of Mus musculus with 24 samples.

Results

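The genes described here carry the interleukin-10 signal: the cytokine gene Il10, the receptor genes Il10ra and Il10rb, the kinase genes Jak1 and Tyk2, the transcription factor gene Stat3, and the STAT3 target genes Socs3 and Bcl3. They were chosen by name, by matching the Ensembl gene identifiers of the deposited table of log2 RPKM (reads on a gene, scaled to its length and to the library's depth) to mouse gene symbols. All 8 were among the 17301 genes of the table, and all 8 were among the 12878 genes that passed a filter on low values.

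Interleukin-10 is a dimeric cytokine that limits inflammation. It binds a receptor of an interleukin-10-specific alpha chain, encoded by Il10ra, and a beta chain shared with related cytokines, encoded by Il10rb. JAK1 is associated with the alpha chain and TYK2 with the beta chain, and both kinases phosphorylate STAT3, which then enters the nucleus. In the gut, macrophages both make and sense interleukin-10, and mice or children that lack the cytokine or either receptor chain develop colitis.

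RNA sequencing was carried out on 4 myeloid populations sorted by flow cytometry from 2 tissues, with 3 libraries in each of the 8 groups. The populations were F4/80hi MHCIIhi macrophages, F4/80hi MHCIIlow macrophages, monocytes and neutrophils. The colon lamina propria (LP) libraries came from mice of strain C57/BL, and the tumour libraries from colon tumours of mice labelled APC/Min, the ApcMin/+ line, which carries a truncating Apc mutation on a C57BL/6J background and forms intestinal adenomas. The cells of a library were sorted from many mice at once, and the labels number its donor pool with a Roman numeral. According to the study's text the tumour mice, of both sexes, received dextran sodium sulphate (DSS) in the drinking water to speed tumour growth and were analysed some weeks later. The same text names DSS for the LP mice too, whereas the labels call that tissue healthy. Tissue, genotype and tumour differ together between LP and tumour libraries and cannot be told apart.

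Depth, as recovered from the table, ranged from 12838061 to 41718078 reads on genes per library. The sorted populations carried their gate genes. H2-Ab1, an MHC class II chain, lay at 11.95 to 13.36 log2 RPKM in the 6 MHCIIhi macrophage libraries and at 6.67 to 11.05 in the 6 MHCIIlow macrophage libraries. Of the other cell markers, the summed level of 8 macrophage genes was 3470 to 7460 RPKM in macrophage libraries and 192 to 807 RPKM in the other libraries. The summed level of 8 neutrophil genes was 10500 to 30800 RPKM in neutrophil libraries and 8.75 to 670 RPKM elsewhere. The 5 monocyte genes did not separate monocytes (769 to 3170 RPKM) from neutrophils (644 to 1280 RPKM), but were at 3.18 to 21.1 RPKM in macrophages. Some markers of other cells moved with the tissue: 5 fibroblast genes summed to 6.43 to 51.7 RPKM in LP and 0 to 1.56 RPKM in tumour libraries. The 6 B and plasma cell genes summed to 157 to 1300 RPKM in LP and 0.167 to 20.1 RPKM in tumour monocytes and neutrophils, and 7 epithelial genes to 12.7 to 62.2 RPKM in LP and 151 to 307 RPKM in tumour neutrophils. The 5 dendritic cell genes summed to 44.3 to 65.3 RPKM in LP and 5.04 to 14.3 RPKM in tumour MHCIIhi macrophages, and to 75.6 to 147 RPKM in LP and 2.45 to 18.3 RPKM in tumour neutrophils. The 7 T and NK cell genes in the table summed to 78.7 to 89.1 RPKM in LP and 46.6 to 57.2 RPKM in tumour MHCIIhi macrophages. In MHCIIlow macrophages they summed to 36.8 to 59.3 RPKM in LP and 22.7 to 28.8 RPKM in tumour. Cd8a was at 0 in all macrophage libraries, and the sum was 0.262 to 4.18 RPKM in monocytes and neutrophils. The part of these cells in the results was not tested.

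Promoter stretches of 4 of these genes are shown because Stat3, Jak1 and Bcl3 were lower together in tumour macrophages while Socs3, a STAT3 target, was the most abundant of the genes per unit of length. They come from RefSeq windows on the GRCm38.p6 build, which cover 250 bases before to 50 bases after the RefSeq start of each gene. Of the 8 genes, 5 had a window (Jak1, Bcl3, Tyk2, Stat3 and Socs3). Il10, Il10ra and Il10rb are named only. Each stretch is 180 bases, 5′ to 3′ on the minus strand on which the gene lies: Socs3 at chr11:117969367-117969546, Stat3 at chr11:100939541-100939720, Jak1 at chr4:101265283-101265462 and Bcl3 at chr7:19822771-19822950. The Socs3 and Stat3 stretches end at the RefSeq start, the Bcl3 stretch 15 bases before it and the Jak1 stretch 59 bases before it. In the GENCODE M21 annotation Socs3 spans bases 117966079 to 117970047, so that its stretch lies inside that span and downstream of the GENCODE start. The Stat3, Jak1 and Bcl3 stretches lie just upstream of their GENCODE spans. Capitals mark the palindromic STAT motif TTCNNNGAA, which reads the same on both strands.
Socs3: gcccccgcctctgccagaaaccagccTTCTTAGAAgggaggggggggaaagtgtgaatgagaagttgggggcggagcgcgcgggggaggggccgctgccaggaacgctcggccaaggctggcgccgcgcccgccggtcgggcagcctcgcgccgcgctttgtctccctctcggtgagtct
Stat3: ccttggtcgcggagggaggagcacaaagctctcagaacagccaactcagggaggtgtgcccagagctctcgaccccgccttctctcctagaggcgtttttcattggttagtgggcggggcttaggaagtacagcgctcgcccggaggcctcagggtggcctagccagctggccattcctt
Jak1: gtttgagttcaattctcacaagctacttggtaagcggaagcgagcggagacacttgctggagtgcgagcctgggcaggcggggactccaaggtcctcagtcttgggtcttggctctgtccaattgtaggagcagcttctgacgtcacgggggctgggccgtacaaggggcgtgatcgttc
Bcl3: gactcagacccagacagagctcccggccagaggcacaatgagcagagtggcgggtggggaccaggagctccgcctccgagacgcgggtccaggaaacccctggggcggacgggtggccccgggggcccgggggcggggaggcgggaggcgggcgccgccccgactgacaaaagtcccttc
The capitals stand in the Socs3 stretch alone, where the match TTCTTAGAA begins 154 bases before the RefSeq start and within the GENCODE span of the gene. Over the whole windows the motif was found in 1 of the 5 genes, Socs3, and in 8.3% of all 32851 windows. It was also found in 3 of 14 genes with a window that are listed below as induced by interleukin-10 in macrophages (Sbno2, Zfp36 and Il1r2). Of 12 such genes listed as repressed, 0 had it. A gene was counted if any of its windows matched, whereas the shares of all windows count each window. An NF-κB motif (known as kappaB, searched on both strands) was found in 1 of the 5 genes, Bcl3, in 8.46% of all windows, in 2 of the 14 induced and 4 of the 12 repressed genes. A match to these letters is a description of the window and not a measured binding site.

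In the genome the 8 genes lie on 6 chromosomes (GENCODE M21, GRCm38). Il10 spans bases 131019845 to 131024974 of chromosome 1, Il10ra 45253837 to 45269149 of chromosome 9, and Il10rb 91406164 to 91425834 of chromosome 16. Counting was checked for overlap with neighbours. Of the exon bases of Il10rb, 14.9% also belong to Gm21970 on the same strand. Of those of Tyk2, 8.07% belong to 1700084C06Rik, and of those of Bcl3, 6.51% belong to Gm16175, both on the opposite strand, and the library kit does not mark strand. The values of Il10rb, Tyk2 and Bcl3 may therefore include or lack reads of these neighbours.

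All 8 genes were measured well above the counting floor of 3 reads in all 24 libraries, with the fewest reads for Il10 (202 in its lowest library) and Bcl3 (284). Each of the 8 genes differed among the 8 groups by limma's F test, with adjusted p between 8e-14 (Jak1) and 5.31e-06 (Tyk2), in a data set where 88.2% of all genes tested did so. The span of the group means was widest for Bcl3, at 4.51 on the log2 scale, followed by Il10 at 3.17, and narrowest for Tyk2 at 1.35.

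**Figure D1:**
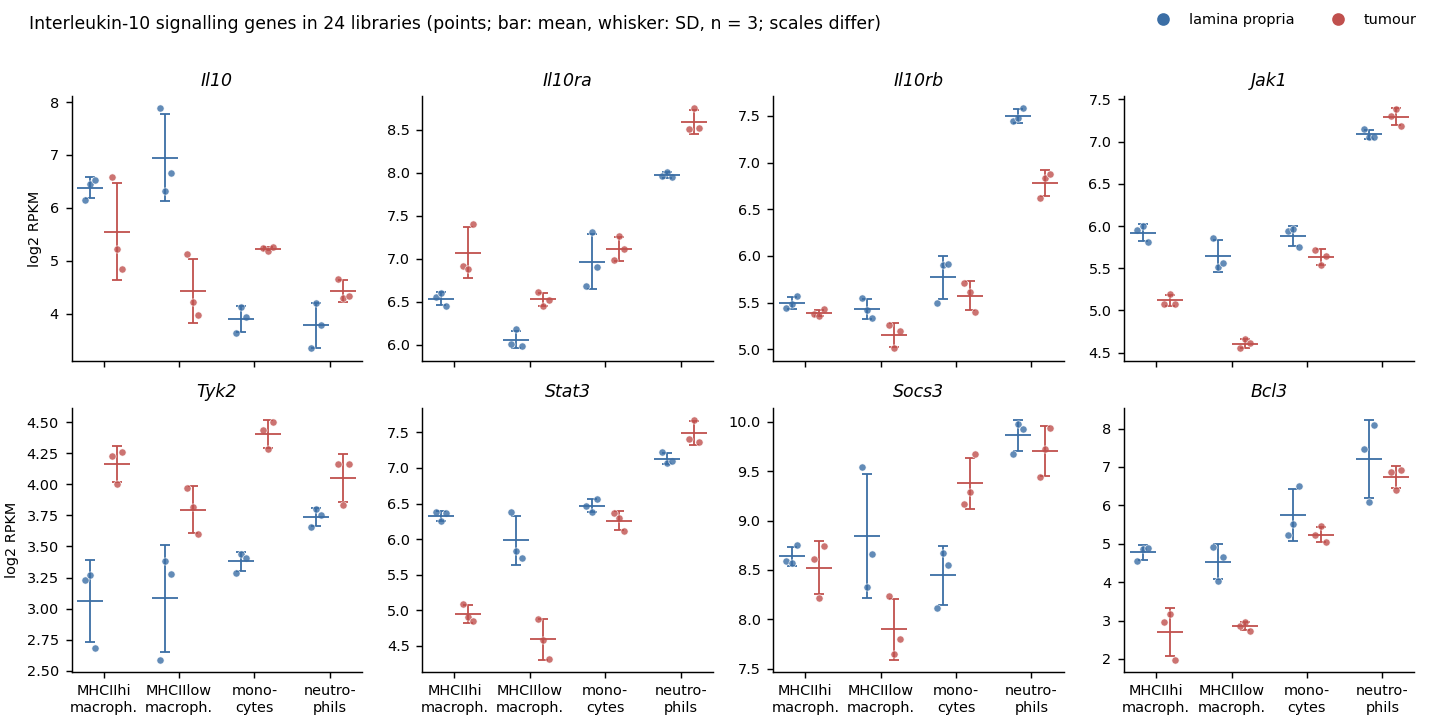
Level of each gene in every library, as log2 RPKM on the y axis (the scale differs between panels), for the 4 populations on the x axis, with LP in blue and tumour in red. Points are libraries, bars are means and whiskers are SDs (n = 3), and Il10 falls from 6.38 ± 0.20 and 6.95 ± 0.82 in LP macrophages to 3.90 ± 0.25 in LP monocytes.

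Within the lamina propria, Il10 itself was highest in the macrophage libraries. In LP MHCIIhi macrophages it was at 6.15, 6.45 and 6.53 log2 RPKM, and in LP MHCIIlow macrophages at 7.88, 6.31 and 6.66. In LP monocytes it was at 3.64, 4.13 and 3.94, and in LP neutrophils at 3.34, 4.20 and 3.79. Every LP macrophage library was thus above every LP monocyte and neutrophil library, and the highest value of all came from pool II of the LP MHCIIlow macrophages. Taken over both macrophage populations, Il10 was 6.79-fold higher than in monocytes of the LP (log2 difference 2.76 ± 0.34 SE, adjusted p = 3.9e-06 by limma).

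In the tumours the macrophages, taken over both populations, were no longer separated from monocytes. Tumour MHCIIhi macrophages held Il10 at 6.58, 5.22 and 4.84 log2 RPKM, and tumour MHCIIlow macrophages at 5.12, 4.21 and 3.97. Tumour monocytes were tightly grouped at 5.24, 5.19 and 5.25, and tumour neutrophils were at 4.66, 4.29 and 4.33. The MHCIIhi macrophage libraries of the tumour lay on both sides of the monocyte libraries, whereas every MHCIIlow macrophage library lay below every monocyte library. Taken over both macrophage populations, the difference from monocytes was −0.24 (95% interval −0.95 to 0.48, adjusted p = 0.625 by limma). Neither macrophage population was tested against monocytes by itself. The tumour MHCIIlow macrophages and tumour neutrophils had the same mean of 4.43, whereas every tumour MHCIIhi macrophage library lay above every tumour neutrophil library. Macrophages were not tested against neutrophils.

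Relative to LP, Il10 fell 5.74-fold in tumour MHCIIlow macrophages (log2 difference −2.52 ± 0.39 SE, adjusted p = 8.35e-05 by limma), with no overlap of the libraries, and it passed the test under all 15 alternatives. In MHCIIhi macrophages the difference was −0.83 (95% interval −1.65 to −0.01, adjusted p = 0.157 by limma), and the libraries overlapped. There, pool I of the tumour was at the LP level while pools V and VII were below it, and without pool I the difference was −1.35 with an adjusted p of 0.0146 by limma. With libraries weighted by their quality (arrayWeights) the adjusted p was 0.0371. These were the 2 of 15 alternatives that called it, and without pool VII the difference was −0.48 (adjusted p = 0.537 by limma). The tumour difference of the MHCIIlow population did not pass the test against that of the MHCIIhi population (−1.69, 95% interval −2.85 to −0.53, adjusted p = 0.158 by limma).

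Il10 moved the other way in monocytes. It was 2.5-fold higher in tumour than in LP monocytes, with no overlap (log2 difference 1.32 ± 0.39 SE, adjusted p = 0.039 by limma). This call was not firm: leaving out any 1 of the 6 libraries gave differences of 1.19 to 1.44 with adjusted p of 0.0541 to 0.133 by limma, and a fit on reads recovered from the table gave 0.0613. The neutrophil difference was 0.65 (95% interval −0.17 to 1.47), higher in all tumour libraries but past no threshold (adjusted p = 0.222 by limma). The tumour difference of macrophages minus that of monocytes was −3.00 ± 0.48 SE (adjusted p = 3.96e-04 by limma), and it passed the test under all 28 alternatives.

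The receptor genes did not follow the cytokine. Il10ra was highest in neutrophils, at 7.96, 8.01 and 7.95 log2 RPKM in LP and 8.51, 8.75 and 8.52 in tumour. Its lowest values were in LP MHCIIlow macrophages, at 6.01, 6.18 and 5.99, and the tumour counterparts were at 6.61, 6.45 and 6.52. LP MHCIIhi macrophages were at 6.56, 6.60 and 6.45 and tumour MHCIIhi macrophages at 6.92, 6.88 and 7.41. In these 3 populations every tumour library was above every LP library, whereas the monocyte libraries overlapped (6.68, 7.31 and 6.90 in LP and 6.98, 7.26 and 7.11 in tumour).

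Il10ra rose 1.44-fold in MHCIIhi macrophages (0.53 ± 0.15 SE, adjusted p = 0.0155 by limma), 1.39-fold in MHCIIlow macrophages (0.47 ± 0.15, adjusted p = 0.0265) and 1.54-fold in neutrophils (0.62 ± 0.15, adjusted p = 0.00349). Under quantile normalization the neutrophil difference was 0.27 (adjusted p = 0.313 by limma). The monocyte difference was 0.15 (95% interval −0.16 to 0.46). The macrophage calls were lost on leaving out single libraries. In the MHCIIhi population the adjusted p was 0.111 without tumour pool VII, the highest library, where the difference was 0.36, and 0.0634 without LP pool V. In the MHCIIlow population it was 0.0586 to 0.0852 without LP pool II or IV or tumour pool I or VII, and 0.087 with libraries centred on their medians.

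Il10rb, whose product also serves the receptors of interleukin-22 and the lambda interferons, was likewise a neutrophil-rich transcript. It was at 7.44, 7.48 and 7.58 log2 RPKM in LP neutrophils and at 6.62, 6.84 and 6.88 in tumour neutrophils, and between 5.01 and 5.91 in the 18 other libraries. The neutrophil groups did not overlap, and Il10rb fell 1.65-fold in tumour neutrophils (−0.72 ± 0.12 SE, adjusted p = 1.32e-04 by limma). The differences in MHCIIhi macrophages (−0.11), MHCIIlow macrophages (−0.28) and monocytes (−0.19) did not pass the test. Since Il10ra rose and Il10rb fell in tumour neutrophils, the difference between the receptor genes within a library went from 0.47 ± 0.09 (SD, n = 3) in LP to 1.81 ± 0.15 in tumour neutrophils, with no overlap. It was wider in the tumour libraries of both macrophage populations as well, at 1.68 ± 0.25 against 1.04 ± 0.13 in MHCIIhi and 1.37 ± 0.07 against 0.62 ± 0.15 in MHCIIlow macrophages, again without overlap, and the monocyte libraries overlapped.

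The receptor kinase genes moved in opposite directions in tumour macrophages. Jak1 was at 5.95, 6.0 and 5.81 log2 RPKM in LP MHCIIhi macrophages and at 5.08, 5.2 and 5.08 in their tumour counterparts. In MHCIIlow macrophages it was at 5.86, 5.51 and 5.56 in LP and at 4.55, 4.66 and 4.61 in tumour. All tumour macrophage libraries were below all LP macrophage libraries. Jak1 fell 1.74-fold in MHCIIhi (−0.80 ± 0.11 SE, adjusted p = 1.56e-05 by limma) and 2.05-fold in MHCIIlow macrophages (−1.03 ± 0.11, adjusted p = 5.99e-07). In monocytes the difference was −0.26 (95% interval −0.48 to −0.04, adjusted p = 0.145 by limma), and in neutrophils, which had the highest Jak1 levels in both tissues (7.05 to 7.39), it was 0.21 (−0.01 to 0.43).

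Tyk2 was the least abundant of the 8 genes in most groups. It was at 3.23, 3.27 and 2.68 log2 RPKM in LP MHCIIhi macrophages against 4.23, 4.0 and 4.26 in tumour, and at 2.59, 3.38 and 3.28 in LP MHCIIlow macrophages against 3.97, 3.82 and 3.6 in tumour. In monocytes it was at 3.29, 3.44 and 3.41 in LP and 4.44, 4.28 and 4.50 in tumour. The libraries of these groups did not overlap between tissues, and Tyk2 rose 2.15-fold in MHCIIhi macrophages (1.11 ± 0.19 SE, adjusted p = 2.62e-04 by limma), 1.64-fold in MHCIIlow macrophages (0.72 ± 0.19, adjusted p = 0.00809) and 2.04-fold in monocytes (1.03 ± 0.19, adjusted p = 0.00144). Pool II of the LP MHCIIlow macrophages had the lowest Tyk2 of all libraries, and without it the MHCIIlow difference was 0.47 with an adjusted p of 0.0652 by limma. With only the compared libraries in the fit it was 0.0594. In neutrophils the difference was 0.31 (95% interval −0.08 to 0.71).

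The gap between the kinase genes therefore narrowed in 3 of the 4 tumour populations. Within a library Jak1 exceeded Tyk2 by 2.87 ± 0.23 on the log2 RPKM scale (SD, n = 3) in LP MHCIIhi macrophages and by 0.96 ± 0.22 in tumour, that is by 7.29-fold and 1.94-fold. The same gap was 2.56 ± 0.62 in LP and 0.81 ± 0.21 in tumour MHCIIlow macrophages, and 2.51 ± 0.16 in LP and 1.22 ± 0.08 in tumour monocytes. In neutrophils it was 3.35 ± 0.12 and 3.25 ± 0.28, and the libraries overlapped. Such within-library gaps do not depend on how the libraries were scaled to each other.

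**Figure D2:**
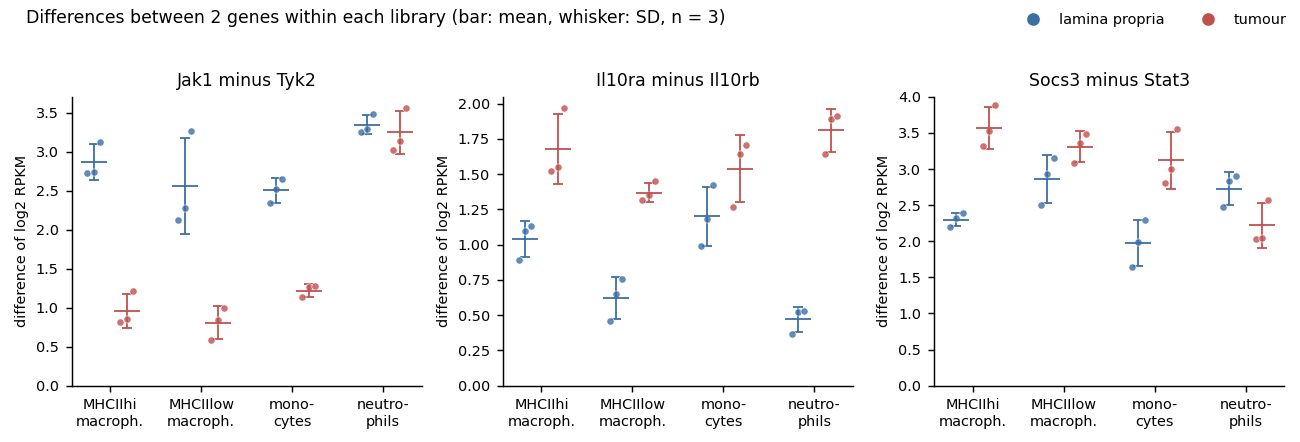
Differences between the log2 RPKM of a pair of genes within each library (y axis) for the 4 populations (x axis), LP in blue and tumour in red, with points for libraries, bars for means and whiskers for SDs (n = 3). Jak1 minus Tyk2 is 2.13 to 3.27 in LP macrophages and monocytes together with 0.58 to 1.28 in their tumour counterparts, and Il10ra minus Il10rb is larger in tumour neutrophils (1.64 to 1.91) than in LP neutrophils (0.37 to 0.53).

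Stat3, the transcription factor through which most effects of interleukin-10 on macrophages pass, was lower in tumour macrophages. It was at 6.38, 6.25 and 6.36 log2 RPKM in LP MHCIIhi macrophages and at 5.09, 4.90 and 4.85 in tumour. In MHCIIlow macrophages it was at 6.38, 5.83 and 5.74 in LP and at 4.88, 4.58 and 4.31 in tumour. No tumour macrophage library reached any LP macrophage library, and Stat3 fell 2.61-fold in MHCIIhi (−1.38 ± 0.16 SE, adjusted p = 2.51e-06 by limma) and 2.62-fold in MHCIIlow macrophages (−1.39 ± 0.16, adjusted p = 1.82e-06). In monocytes it was at 6.46, 6.38 and 6.56 in LP and 6.37, 6.29 and 6.12 in tumour, a difference of −0.21 (95% interval −0.53 to 0.12). Neutrophils had the highest levels, 7.22, 7.07 and 7.10 in LP and 7.41, 7.68 and 7.37 in tumour, and the difference of 0.36 did not pass the test (adjusted p = 0.0874 by limma).

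Of the STAT3 targets, Bcl3 encodes an atypical IκB protein that binds NF-κB p50 and restrains inflammatory genes. It was at 4.56, 4.86 and 4.90 log2 RPKM in LP MHCIIhi and 4.92, 4.03 and 4.66 in LP MHCIIlow macrophages. In the tumour it was at 2.96, 3.16 and 1.98 in MHCIIhi and 2.86, 2.97 and 2.74 in MHCIIlow macrophages, so that again every tumour library lay below every LP library. Bcl3 fell 4.21-fold in MHCIIhi (−2.07 ± 0.40 SE, adjusted p = 8.98e-04 by limma) and 3.21-fold in MHCIIlow macrophages (−1.68 ± 0.40, adjusted p = 0.00399). Monocytes (5.22, 5.51 and 6.51 in LP, 5.22, 5.45 and 5.05 in tumour) and neutrophils (7.46, 6.09 and 8.09 in LP, 6.87, 6.40 and 6.93 in tumour) overlapped between tissues, with differences of −0.50 and −0.48 (adjusted p = 0.516 and 0.395 by limma). Leaving out 1 library moved the neutrophil difference between −1.04, without LP pool IV, the lowest LP library (adjusted p = 0.0349 by limma), and −0.03, without LP pool V, the highest (adjusted p = 0.976).

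Socs3 encodes a suppressor that is induced through STAT3 and blocks JAK activity at receptors such as gp130, though not at the interleukin-10 receptor. It was abundant throughout, at 7.65 to 9.98 log2 RPKM. In MHCIIlow macrophages it was at 9.54, 8.33 and 8.66 in LP and 8.24, 7.65 and 7.80 in tumour, and in MHCIIhi macrophages at 8.59, 8.57 and 8.75 in LP and 8.61, 8.22 and 8.74 in tumour. In monocytes it was at 8.11, 8.67 and 8.55 in LP and 9.17, 9.29 and 9.67 in tumour. The MHCIIlow and monocyte groups did not overlap between tissues but moved in opposite directions.

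Socs3 fell 1.92-fold in tumour MHCIIlow macrophages (−0.94 ± 0.25 SE, adjusted p = 0.00875 by limma) and rose 1.91-fold in tumour monocytes (0.94 ± 0.25, adjusted p = 0.0215). The MHCIIhi difference was −0.11 (95% interval −0.64 to 0.41) and the neutrophil difference −0.16 (−0.68 to 0.36). Both calls rested on single libraries. Without LP pool II, the highest, the MHCIIlow difference was −0.60 (adjusted p = 0.0684 by limma), with only the compared libraries in the fit the adjusted p was 0.0561, and the monocyte difference was 0.77 (0.113) without LP pool III and 0.79 (0.0976) without tumour pool V. Since Stat3 fell and Socs3 did not fall with it in MHCIIhi macrophages, Socs3 exceeded Stat3 within a library by 2.3 ± 0.09 in LP and by 3.57 ± 0.29 in tumour (SD, n = 3), with no overlap. This gap was also wider in tumour monocytes (3.12 ± 0.39 against 1.98 ± 0.32, no overlap). It was 2.86 ± 0.33 in LP and 3.31 ± 0.21 in tumour MHCIIlow macrophages, and 2.73 ± 0.23 in LP and 2.22 ± 0.31 in tumour neutrophils, and in both the libraries overlapped.

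**Figure D3:**
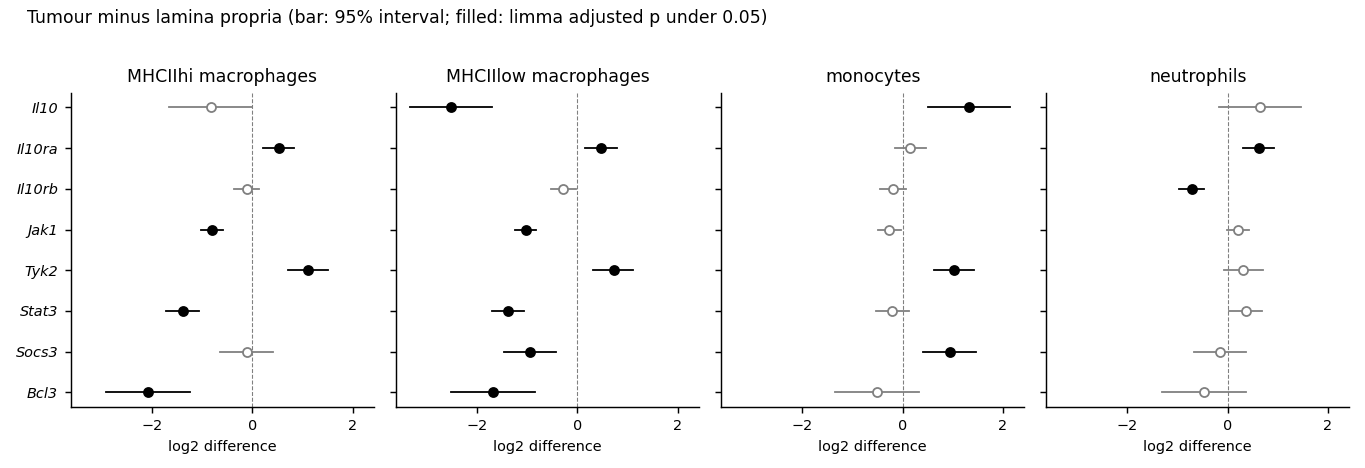
Tumour minus LP differences (x axis, log2 scale) of the 8 genes (y axis) in the 4 populations, with points for the estimates, bars for 95% intervals and filled points for an adjusted p under 0.05 by limma. Stat3, Jak1 and Bcl3 lie to the left and Il10ra and Tyk2 to the right in both macrophage populations, while monocytes show rises of Il10 (1.32), Socs3 (0.94) and Tyk2 (1.03).

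Counted over the 8 genes, 2 rose and 3 fell in tumour MHCIIhi macrophages, where 8.01% of all genes tested rose and 11.5% fell. In MHCIIlow macrophages 2 rose and 5 fell, with 11.5% of all genes rising and 11.8% falling. In monocytes 3 rose and 0 fell (4.86% and 4.43% of all genes), and in neutrophils 1 rose and 1 fell (13.1% and 19.0%). The median difference over the 8 genes was −0.46, −0.99, −0.02 and 0.26 in these populations in turn, beside 0.00, 0.06, 0.00 and −0.12 over all genes. With libraries centred on their medians, which removes this shift, Stat3 (0.60, adjusted p = 0.00706 by limma), Jak1 (0.45, 0.00521) and Tyk2 (0.56, 0.0313) were also called higher in tumour neutrophils. For 3 against 3 libraries an exact permutation test of a single gene cannot go below 0.1, so that these calls rest on limma's pooling of the spread over genes and groups. Donor numerals II and V occur in both tissues, but the mice differ in genotype, and the labels do not say whether an equal numeral marks a shared experiment. LP and tumour libraries were therefore not paired. In sorted bulk samples, fewer cells that make a transcript and less of it per cell cannot be told apart.

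The difference between the tumour effects was tested directly. Of the 8 genes, 4 differed between macrophages and monocytes, where 9.19% of all genes did: Il10 (−3.00), Stat3 (−1.18 ± 0.19 SE, adjusted p = 4.08e-04 by limma), Socs3 (−1.47 ± 0.31, adjusted p = 0.00373) and Jak1 (−0.66 ± 0.13, adjusted p = 0.00213). Each was lower in the macrophage comparison and passed under all 28 alternatives. For Bcl3 the difference was −1.37 (95% interval −2.40 to −0.35, adjusted p = 0.0892 by limma), called under 5 of 28 alternatives, and leaving out 1 library moved it between −1.76, without LP monocyte pool V (0.0343), and −1.11, without LP monocyte pool III (0.237). Il10ra (0.35), Il10rb (0.00) and Tyk2 (−0.11) did not pass. Tyk2 rose in macrophages and monocytes alike within an interval of −0.60 to 0.37 for their difference.

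Between the macrophage populations 0 of the 8 tumour effects differed by limma (1.46% of all genes did), with 2 at an unadjusted p under 0.05 (Il10, −1.69, and Socs3, −0.83). Between neutrophils and monocytes 0 of 8 did as well (9.11% of all genes), although 6 were at an unadjusted p under 0.05. There the replicate block, which ties libraries of the same pool, moved the count to 3, as random block for Il10rb (−0.53, adjusted p = 0.0452 by limma), Socs3 (−1.09, 0.0499) and Jak1 (0.46, 0.0496), and as fixed block for Stat3 (0.56, 0.0174), Socs3 (−1.09, 0.0246) and Jak1 (0.46, 0.0384). Leaving out 1 library gave 0 to 3, with 3 without tumour neutrophil pool V and 2 without LP monocyte pool V. These comparisons share the monocyte libraries with the comparison of macrophages and monocytes.

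Set against monocytes of the same tissue, most of the genes were higher in neutrophils, whereas Il10 and Tyk2 were not called in either tissue. In LP neutrophils 6 of the 8 genes were higher than in LP monocytes and 0 lower, where 24.1% of all genes were higher and 30.4% lower. They were Il10ra (1.01 ± 0.15 SE), Il10rb (1.74 ± 0.12), Jak1 (1.20 ± 0.11), Stat3 (0.66 ± 0.16), Socs3 (1.42 ± 0.25) and Bcl3 (1.47 ± 0.40), with adjusted p from 4.47e-10 (Il10rb) to 0.00431 (Bcl3) by limma. In the tumour 5 were higher and 0 lower (23.3% and 34.9% of all genes): Il10ra (1.48 ± 0.15), Il10rb (1.20 ± 0.12), Jak1 (1.66 ± 0.11), Stat3 (1.23 ± 0.16) and Bcl3 (1.5 ± 0.40). Socs3 was at 9.44, 9.73 and 9.94 in tumour neutrophils and at 9.17, 9.29 and 9.67 in tumour monocytes, which overlapped (0.32, adjusted p = 0.281 by limma). Tyk2 differed by 0.36 in LP (adjusted p = 0.118 by limma) and by −0.36 in the tumour (adjusted p = 0.11), with no overlap in either. Il10 was lower in all tumour neutrophil than in all tumour monocyte libraries (−0.80, adjusted p = 0.0891 by limma), and with the pool as a fixed replicate block the adjusted p was 0.00362.

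Scaling mattered for these neutrophil values. The authors' scaling used library sizes of 0.466 to 0.483 times the reads in tumour and 0.630 to 0.682 in LP neutrophils. In all other libraries it used 0.981 to 1.51, and a smaller size gives a higher value for the same reads. The median gene was lower in neutrophils than in monocytes, by −0.24 in LP and −0.36 in tumour. Under quantile normalization the LP count dropped to 2 of 8, with Il10ra at 0.06 (adjusted p = 0.806 by limma), Socs3 at 0.17 (0.593), Bcl3 at 0.73 (0.112) and Stat3 turned to −0.15. In the tumour the same setting took away the calls of Il10ra (0.26, adjusted p = 0.257 by limma), Stat3 (0.21, 0.255) and Bcl3 (0.74, 0.108), and Socs3 turned to −1.22 (3.13e-04). Centring the libraries on their medians instead gave 0.77 for Socs3 in the tumour (adjusted p = 0.0182 by limma). Il10rb and Jak1 were higher in neutrophils of both tissues under all 16 alternatives.

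Macrophages were then set against monocytes of the same tissue. In the LP, 1 of the 8 genes was higher in macrophages (Il10; 12.5% of all genes were higher) and 3 were lower (17.0%): Il10ra (−0.67 ± 0.13 SE, adjusted p = 5.65e-04 by limma), Il10rb (−0.30 ± 0.10, adjusted p = 0.0347) and Bcl3 (−1.09 ± 0.35, adjusted p = 0.0226). Without LP monocyte pool V the Bcl3 difference was −0.70 (adjusted p = 0.197 by limma), without LP MHCIIlow pool III it was −0.96 (0.0506), and the Il10rb call was lost on leaving out any of 6 libraries (0.0523 to 0.188). With the pool as a fixed block Stat3 was also called lower in LP macrophages (−0.40, adjusted p = 0.00297 by limma).

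In the tumour, where Il10rb and Bcl3 were again called lower, 0 of the 8 genes were higher in macrophages (16.8% of all genes were) and 6 were lower (21.4%). Stat3 was 2.81-fold lower (−1.49 ± 0.13 SE, adjusted p = 2.59e-08 by limma), Bcl3 5.51-fold (−2.46 ± 0.35, adjusted p = 9.94e-06), Socs3 2.25-fold (−1.17 ± 0.22, adjusted p = 2.28e-04) and Jak1 1.7-fold (−0.77 ± 0.09, adjusted p = 1.13e-06). For these 4 genes every macrophage library lay below every monocyte library. Tyk2 (−0.43, adjusted p = 0.0455 by limma) and Il10rb (−0.30, adjusted p = 0.0261 by limma) were near the threshold. The Il10rb adjusted p was 0.0633 with the fixed block, and the Tyk2 call was lost on leaving out any of 7 libraries (0.0534 to 0.147).

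**Figure D4:**
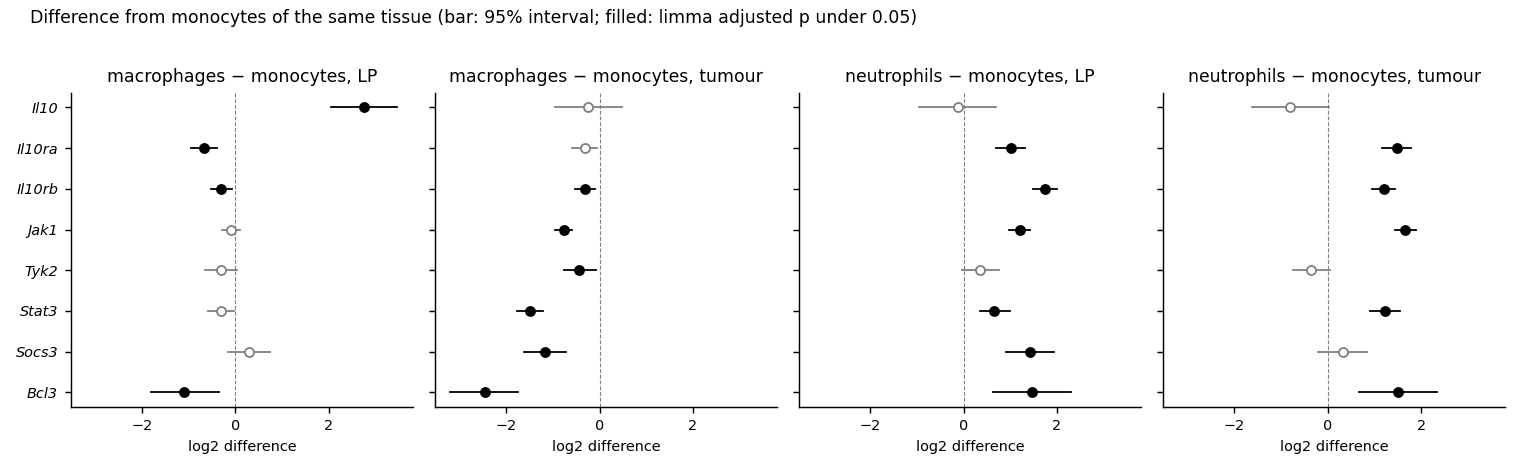
Differences of macrophages (the mean of both populations) and of neutrophils from monocytes of the same tissue (x axis, log2 scale) for the 8 genes (y axis), with bars for 95% intervals and filled points for an adjusted p under 0.05 by limma. Il10 stands at 2.76 for LP macrophages and at −0.24 for tumour macrophages, where Stat3, Socs3, Bcl3 and Jak1 lie to the left.

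Few of the genes were called between the macrophage populations. In the LP 0 of the 8 genes passed in either direction (2.13% of all genes were higher and 5.57% lower in MHCIIlow), with 3 at an unadjusted p under 0.05, and in the tumour 0 were higher and 1 lower (0.567% of all genes in each direction), with 5 at an unadjusted p under 0.05 (Il10, Il10ra, Stat3, Socs3 and Jak1), all lower in MHCIIlow. The 1 gene was Jak1, at −0.51 ± 0.11 SE (adjusted p = 0.0221 by limma), and its call was lost on leaving out pool V or VII of either population (0.0505 to 0.067) and with only the compared libraries in the fit (0.239). In the LP the Il10ra libraries of the MHCIIlow macrophages were all below those of the MHCIIhi macrophages (−0.48, adjusted p = 0.0542 by limma), and with the pool as a random block the adjusted p was 0.0468. As a fixed block the pool gave calls for Stat3 (−0.53, 0.0101) and Jak1 (−0.44, 0.0279) in the LP and added Il10 (−1.12, 0.0111) in the tumour.

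Other genes of the pathway were taken from lists made for these comparisons, and were tested between tumour and LP in the same limma fit. Of the relatives of interleukin-10 and their receptors, 6 of 11 listed genes were in the table and 5 were tested, and of these 1 fell in MHCIIhi macrophages (Il20rb), 1 fell in monocytes (Il24) and 0 rose. Both are named after their values were seen. Il24 was at −1.93 ± 4.65 log2 RPKM (SD, n = 3) in LP monocytes and at −7.29, the value of 0 reads, in the other groups, and Il20rb at −0.49 ± 0.35 in LP and −5.44 ± 4.16 in tumour MHCIIhi macrophages. Of the 8 other JAK and STAT genes, 0 rose and 4 fell in MHCIIhi macrophages, 3 rose and 3 fell in MHCIIlow macrophages, and 2 rose and 2 fell in monocytes. In neutrophils 2 rose and 1 fell. Of all genes, 8.01% rose and 11.5% fell in MHCIIhi macrophages, 11.5% and 11.8% in MHCIIlow macrophages, 4.86% and 4.43% in monocytes and 13.1% and 19.0% in neutrophils. Stat5a, the factor of GM-CSF and growth hormone signalling that lies next to Stat3, fell in all 4 populations, by −2.50 ± 0.27 SE (adjusted p = 1.38e-06 by limma) in MHCIIhi and −2.83 ± 0.27 (2.84e-07) in MHCIIlow macrophages, and by −1.05 and −1.29 in monocytes and neutrophils. Its monocyte call was lost without LP pool IV or V or tumour pool I (adjusted p up to 0.079 by limma). Stat5a and Stat3 share 0.76% of the exon bases of Stat3. Jak2, the kinase of the GM-CSF and interferon-gamma receptors, fell in both macrophage populations (−1.62 and −0.86).

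Of the 7 tested receptor genes that also signal through STAT3, 0 rose and 2 fell in MHCIIhi, and 0 rose and 3 fell in MHCIIlow macrophages. In monocytes 1 rose and 0 fell, and in neutrophils 0 rose and 2 fell. The medians were −0.25, −0.58, 0.13 and −1.26 in turn, beside 0.00, 0.06, 0.00 and −0.12 over all genes. The shares of all genes that rose were 8.01%, 11.5%, 4.86% and 13.1%, and those that fell 11.5%, 11.8%, 4.43% and 19.0%. Il6st, which encodes the gp130 chain shared by the interleukin-6 family, fell 4.96-fold in MHCIIhi (−2.31 ± 0.52 SE, adjusted p = 0.00305 by limma) and 3.92-fold in MHCIIlow macrophages (−1.97 ± 0.52, adjusted p = 0.00798), and it also fell in neutrophils (−1.51, adjusted p = 0.0305), where the libraries overlapped. The MHCIIlow call was lost without tumour pool VII (adjusted p = 0.0525 by limma). Il6ra fell in MHCIIlow macrophages (−0.58) and rose in monocytes (0.60), calls that were lost without LP MHCIIlow pool II (adjusted p = 0.0631 by limma) and without LP monocyte pool III or tumour monocyte pool I or V (up to 0.112).

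Of 15 inhibitors of JAK and STAT signalling, 1 rose and 6 fell in MHCIIhi and 2 rose and 6 fell in MHCIIlow macrophages, with medians of −0.41 and −0.49. In monocytes 2 rose and 0 fell, and in neutrophils 4 rose and 6 fell, with medians of −0.36 and −0.27. Beside these stand 8.01% rising and 11.5% falling of all genes in MHCIIhi and 11.5% and 11.8% in MHCIIlow macrophages. The shares were 4.86% and 4.43% in monocytes and 13.1% and 19.0% in neutrophils. The all-gene medians were 0.00, 0.06, 0.00 and −0.12 in turn. Ptpn6, which encodes the phosphatase SHP-1, rose in all 4 populations, most in macrophages (1.66 ± 0.20 SE, adjusted p = 6.73e-06, and 2.05 ± 0.20, adjusted p = 4.29e-07 by limma). Its monocyte call was lost without LP pool III or tumour pool V (adjusted p up to 0.0762). Socs1, a suppressor of interferon signalling, fell 4.11-fold in each macrophage population (−2.04 ± 0.36 SE in both) and 5.37-fold in neutrophils (−2.42 ± 0.36). Ptpn2, which encodes a nuclear phosphatase of STAT proteins, fell in macrophages (−1.32 and −1.09) and rose in neutrophils (0.62, lost with arrayWeights at an adjusted p of 0.061 by limma).

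The responses known from macrophages treated with interleukin-10 were looked at as 2 lists. Of 16 genes listed as induced, 0 rose and 7 fell in MHCIIhi macrophages and 3 rose and 6 fell in MHCIIlow macrophages, with medians of −0.88 and −0.53. In monocytes 4 rose and 0 fell, and in neutrophils 5 rose and 4 fell, with medians of 0.25 and 0.28. Of all genes 11.5%, 11.8%, 4.43% and 19.0% fell and 8.01%, 11.5%, 4.86% and 13.1% rose in the 4 populations, with medians of 0.00, 0.06, 0.00 and −0.12. Among those that fell in both macrophage populations were Sbno2, a co-repressor induced through STAT3 (−1.81 and −2.73 ± 0.16 SE, the latter with adjusted p = 8.43e-10 by limma), Etv3, a transcriptional repressor (−1.93 and −2.81 ± 0.23), Il4ra, the interleukin-4 receptor chain (−1.96 and −2.11), and Il1rn, the interleukin-1 receptor antagonist (−1.98 and −1.26). Il1r2, a decoy receptor for interleukin-1, went opposite ways, falling in MHCIIhi (−1.99 ± 0.39) and rising in MHCIIlow macrophages (1.60 ± 0.39). Ddit4 (2.24 ± 0.32, adjusted p = 3.39e-05 by limma) and Nfil3 (1.35 ± 0.43, adjusted p = 0.0257) rose in MHCIIlow macrophages too. The Nfil3 call was lost without LP pool II or tumour pool I (adjusted p up to 0.141 by limma). Cd163, the haemoglobin scavenger receptor, fell in MHCIIlow macrophages (−5.29 ± 1.41, adjusted p = 0.00887 by limma), and its adjusted p was 0.0504 without tumour pool I. It also fell in neutrophils (−4.57, adjusted p = 0.0173 by limma), where the libraries overlapped. There it was very low in both tissues, at −4.41 ± 4.05 log2 RPKM (SD, n = 3) in LP and −8.99 ± 0.0 in tumour. In monocytes Ddit4 (2.27), Hmox1 (1.56), Slpi (1.64) and Pim1 (0.83) rose. The Slpi call was lost under quantile normalization and without LP pool III or V or tumour pool I or II (adjusted p up to 0.161 by limma).

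Of 18 genes listed as repressed, 3 rose and 3 fell in MHCIIhi, 6 rose and 2 fell in MHCIIlow macrophages, 9 rose and 0 fell in monocytes, and 9 rose and 3 fell in neutrophils. The medians were 0.28, 0.56, 1.11 and 0.97 in turn, beside 0.00, 0.06, 0.00 and −0.12 over all genes. Rises made up 8.01%, 11.5%, 4.86% and 13.1% of all genes and falls 11.5%, 11.8%, 4.43% and 19.0%. Il1a, encoding interleukin-1 alpha, rose in all 4 populations, 4.99-fold in MHCIIhi (2.32 ± 0.28 SE, adjusted p = 4.96e-06 by limma), 3.95-fold in MHCIIlow macrophages, 8.91-fold in monocytes and 17.4-fold in neutrophils. Ptgs2, the inducible cyclooxygenase, rose in all 4 as well (0.94, 1.97, 2.71 and 2.3). Il1b rose in MHCIIlow macrophages (2.19 ± 0.28, adjusted p = 9.73e-06 by limma), where neutrophil markers also stood higher. The 8 neutrophil genes summed to 229 to 670 RPKM in tumour and 8.75 to 64.3 RPKM in LP MHCIIlow macrophages, with Camp at 0 in both and Ly6g at 0 in LP. In MHCIIhi macrophages the same genes summed to 108 to 191 RPKM in tumour and 17.6 to 20.8 RPKM in LP. Il1a, Ptgs2, Il1b and Il1r2 all had their highest level in tumour neutrophils, at means of 11.82, 11.74, 14.9 and 12.83 log2 RPKM. The part of neutrophils in the rises of these genes in macrophages was not tested. The costimulatory genes Cd40 and Cd86 fell instead in both macrophage populations (−2.32 and −1.97 for Cd40, −0.98 and −0.57 for Cd86) and in neutrophils (−2.37 and −0.98). Il23a, encoding the p19 subunit of interleukin-23, rose in monocytes (5.99 ± 1.15, adjusted p = 0.00205 by limma), from 18 to 379 reads per library in LP to 2342 to 6028 reads in tumour. It also rose in neutrophils (3.80, adjusted p = 0.0155 by limma, and 0.0533 without tumour pool II) and in MHCIIlow macrophages, where the LP libraries held 0 to 2 reads.

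**Figure D5:**
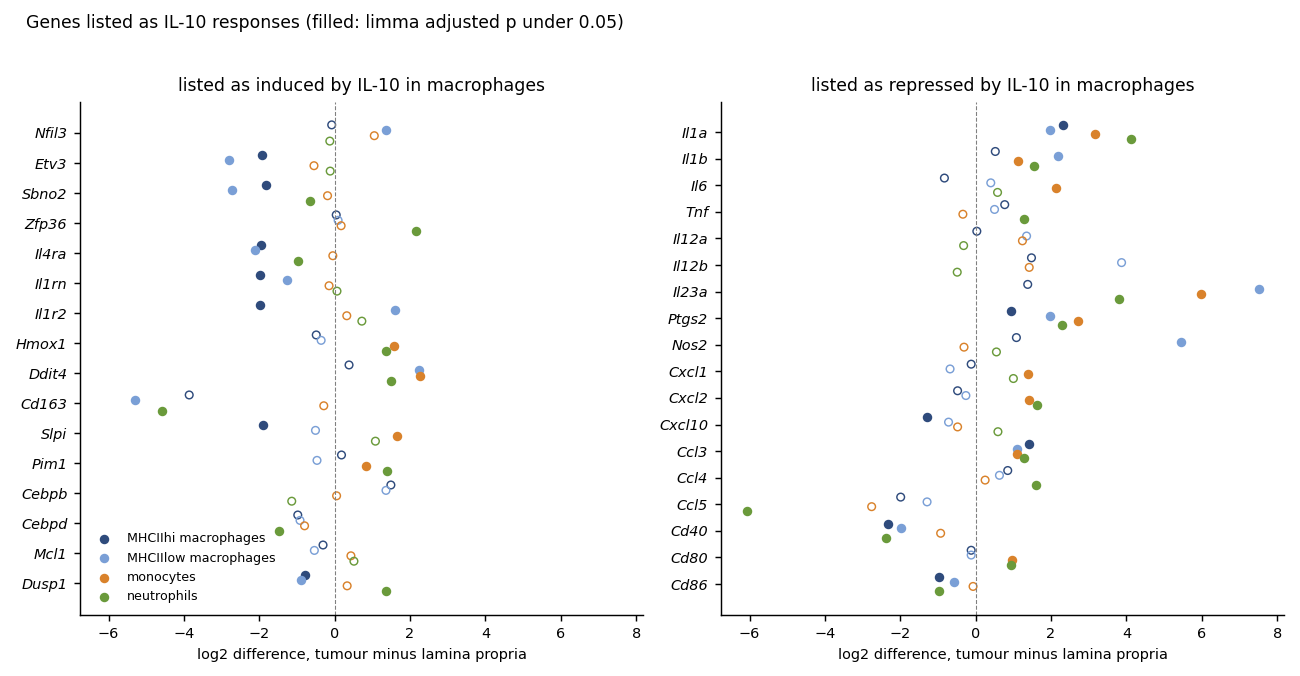
Tumour minus LP differences (x axis, log2 scale) of the 16 genes listed as induced and the 18 listed as repressed by interleukin-10 in macrophages (y axis), with 1 colour for each population and filled points for an adjusted p under 0.05 by limma. Etv3, Sbno2, Il4ra and Il1rn lie to the left in both macrophage populations, and Il1a and Ptgs2 to the right in all 4.

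Of 16 genes known to act on Il10 transcription, 1 rose and 4 fell in MHCIIhi macrophages, 2 rose and 4 fell in MHCIIlow macrophages, 1 rose and 1 fell in monocytes, and 4 rose and 4 fell in neutrophils. The rises stand beside 8.01%, 11.5%, 4.86% and 13.1% of all genes and the falls beside 11.5%, 11.8%, 4.43% and 19.0%. Nfkb1, which encodes the precursor of NF-κB p50, fell in MHCIIhi (−1.33 ± 0.18 SE, adjusted p = 2.52e-05 by limma) and MHCIIlow macrophages (−1.61 ± 0.18, adjusted p = 2.01e-06) and rose in neutrophils (0.84). Irf4, an interferon regulatory factor of alternative activation, fell 31.2-fold in MHCIIlow macrophages (−4.96 ± 0.67 SE, adjusted p = 1.74e-05 by limma), and it also fell in MHCIIhi macrophages (−1.98, adjusted p = 0.0446) and in neutrophils (−2.88, adjusted p = 0.00276). In MHCIIlow macrophages it was at 3.43 ± 0.62 log2 RPKM (SD, n = 3) in LP and at −1.53 ± 1.54 in tumour. Bhlhe40, a repressor of Il10, rose in MHCIIlow macrophages (1.28 ± 0.18) and in monocytes (0.84 ± 0.18). Maf was the 1 gene of the list that rose in MHCIIhi macrophages, from 1.86 ± 0.29 log2 RPKM (SD, n = 3) in LP to 3.23 ± 0.34 in tumour. It was also the 1 gene that fell in monocytes (2.70 ± 0.09 to 0.03 ± 0.27), and it fell in neutrophils (−1.47 ± 0.61 to −3.26 ± 1.02). In MHCIIlow macrophages Maf was not called. Maf did not meet the rule for naming and is named after its values were seen. Map3k8, the kinase upstream of ERK in Toll-like receptor signalling, fell in MHCIIlow macrophages (−1.14). The medians over the list, −0.30, −0.36, 0.13 and 0.03, stood beside 0.00, 0.06, 0.00 and −0.12 over all genes.

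The genes most like Il10, Il10ra and Socs3 across the 24 libraries were sought among 5659 genes by Pearson's r of log2 RPKM. For Il10 they were the chemokine gene Cxcl1 (r = 0.827), Tnip2 (0.808), Tnfrsf12a (0.803), Tubb2a (0.802) and Etv3 (0.801). For Il10ra they included the leukocyte phosphatase gene Ptprc (0.976), Gm8822 (0.964), Tgif1 (0.961) and the actin-bundling gene Lcp1 (0.96), and for Socs3 Arid5a (0.918), Tiparp (0.897), Il17ra (0.891), Ifitm5 (0.89) and B4galt3 (0.89). The 24 libraries are 8 groups of 3, so that these values mostly describe the order of the groups. Libraries of a tissue with the same donor numeral were taken to share mice.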

How the data were processed

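The deposited table holds log2 RPKM values of 17301 genes in 24 libraries. According to the submitters' processing notes and the study's methods, the authors aligned paired reads with STAR 2.3 to GRCm38/mm10, counted them per gene with featureCounts 1.5 on a GENCODE annotation, left out genes with few reads and deposited log2 RPKM. The notes also name edgeR, with no role given, and strand handling is not given in the sources used here. Whole reads were recovered from the steps of the values (415224 of 415224 within 0.002 reads, after a prior of 0.25), which gave the depths. The authors had scaled the libraries to each other, with effective sizes of 0.466 to 1.51 times their reads. The sizes were 0.466 to 0.483 times the reads in tumour neutrophils, 0.630 to 0.682 in LP neutrophils and 0.981 to 1.51 in the other libraries. A smaller effective size gives a higher value for the same reads. Genes with a mean of at least 1 RPKM in at least 1 group were tested (12878).

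The log2 values were fitted with limma 3.58.1 (R 4.3.3) to 8 group means with an empirical Bayes trend, for 13 comparisons and an F test, with Benjamini-Hochberg adjustment over all genes tested and a threshold of 0.05. The method was tested on simulated data. Alternatives were log2(RPKM + 1), no filter, a mean of at least 5 RPKM, quantile normalization, median centring, the compared libraries alone, arrayWeights, voom on recovered reads, the pool as a random or fixed replicate block, and leaving out each library.

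Libraries of a tissue with the same donor numeral in the labels were taken as 1 pool of mice. The deviations of 29 such pairs from their group means correlated by −0.0661 to 0.255 (median 0.0169), and the consensus correlation was 0.0476. The block could not be used as fixed between tumour and LP libraries, which share no pool.

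The members and lists were chosen with earlier results of these data known. From each list and tumour comparison, up to 3 rises and 3 falls were eligible to be named, the largest among called genes without overlap between libraries and a mean of at least 10 RPKM in the higher group. Some values of named genes in other populations are given too. Gene positions and overlaps were taken from GENCODE M21 and promoter windows from RefSeq. Some results on single genes are not reported here.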

Additional observations from a re-analysis of the deposited data

Results flagged for a closer look

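For 4 of the genes the change between LP and tumour was not the same in macrophages and monocytes when the difference between the changes was itself tested by limma. For Il10 it was −3.00 on the log2 scale, from differences of −2.52 in MHCIIlow macrophages, −0.83 in MHCIIhi macrophages, which did not pass the test and where libraries overlapped, and 1.32 in monocytes, which was called under 8 of 15 alternatives. It was −1.18 for Stat3 and −0.66 for Jak1, which fell in both macrophage populations and did not pass the test in monocytes. It was −1.47 for Socs3, which fell in MHCIIlow macrophages and rose in monocytes.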

How the results depend on the processing

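Of 1407 values of single genes under settings other than leaving out a library, 1318 kept their direction and their side of the threshold. The count of the 8 genes called changed by more than 1.5 times as follows. Between tumour and LP neutrophils it was 1 under quantile normalization and 5 with libraries centred on their medians. Between the LP macrophage populations it was 3 with arrayWeights, 2 with the fixed replicate block and 1 with log2(RPKM + 1), a mean RPKM of at least 5, the compared libraries alone, the random replicate block or voom, and between those of the tumour 0 with the compared libraries alone and 2 with the fixed replicate block. Under quantile normalization it was 2 for LP macrophages and 2 for LP neutrophils against monocytes. For the tumour effect of neutrophils minus monocytes it was 3 with either replicate block and with the filter at 5 RPKM, 2 with the compared libraries alone, and 1 with log2(RPKM + 1), quantile normalization or median centring. The replicate block changed no other count by that much.

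Signs turned under quantile normalization for the tumour difference of Il10rb (0.01) and Socs3 (0.14) in MHCIIhi macrophages and of Jak1 in neutrophils (−0.03), for Il10 (0.05) and Il10rb (0.04) in tumour macrophages against monocytes, and for neutrophils against monocytes of Stat3 in LP (−0.15) and Socs3 in tumour (−1.22). Socs3 in tumour neutrophils was 0.08 with median centring, and Il10 in tumour macrophages against monocytes 0.01 with the fixed replicate block. Leaving out 1 library at a time gave 4 to 7 genes called in tumour MHCIIlow macrophages, 1 to 2 in tumour monocytes, 0 to 2 and 0 to 1 between LP and between tumour macrophage populations, 2 to 5 for LP macrophages against monocytes and 0 to 3 for the tumour effect of neutrophils minus monocytes, and Socs3 in MHCIIhi macrophages ranged from −0.22 to 0.04. The cause of these changes was not tested. The precision is limited by the 3 libraries in each group. All 8 genes held at least 202 reads in every library.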
